A study of Mus musculus with 2 samples.

Results

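The messages of 34 mouse genes of glucose breakdown and the oxygen response were measured in single peritoneal cells after zymosan. The genes were the rows of the deposited matrices whose symbol matched a fixed list: 33 matched by symbol, and Ero1a is listed under its older symbol Ero1l, which makes 34 of 31053 genes. The rule itself uses only symbols, but the list was drawn up with earlier results of these data known. Total peritoneal cells were taken 3 days after 1 mg of zymosan per animal, which is made from yeast cell walls and inflames the cavity without live microbes, had been injected into it. The mice were 10 to 14 weeks old. The Cd36-/- library came from mice labelled LysM-Cre with floxed CD36, and the fl/fl library from mice labelled floxed CD36, with no Cre in the label. LysM-Cre acts in macrophages and in other myeloid cells such as neutrophils, so lymphocytes are not its target. Both groups carry floxed Cd36 and both received zymosan, and there was no group without it. Each library was 1 pool of 4 replicates. There is therefore no replicate check and no test, and the presence of Cre and the loss of Cd36 cannot be told apart.

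Glycolysis turns glucose into pyruvate, and lactate dehydrogenase turns pyruvate into lactate, which the cell exports. The pentose phosphate pathway branches from the first glycolytic product and makes NADPH, which phagocytes use for their oxidative burst and to keep glutathione reduced. When oxygen is low the prolyl hydroxylases stop marking the factor HIF-1α for destruction, and it then binds near many glycolytic genes. Inflammatory stimuli can also stabilise HIF-1α in macrophages.

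The promoters of 4 members are printed here because the results turn on these genes. Ldha and Pfkfb3 had the highest and the lowest ratio between the libraries among the members that reached 20 CPM in macrophages, Egln3 separated the macrophage types, and Hk2 separated macrophages from lymphocytes. Each run is the 250 bases before a start site in RefSeq on build GRCm38.p6, 5′ to 3′ on the gene's strand. Capitals mark the core letters ACGTG or GCGTG, to which HIF is known to bind, on either strand. The sequence CACGTG, an E-box, holds ACGTG on both strands.
Ldha, chr7:46845554-46845803, plus strand: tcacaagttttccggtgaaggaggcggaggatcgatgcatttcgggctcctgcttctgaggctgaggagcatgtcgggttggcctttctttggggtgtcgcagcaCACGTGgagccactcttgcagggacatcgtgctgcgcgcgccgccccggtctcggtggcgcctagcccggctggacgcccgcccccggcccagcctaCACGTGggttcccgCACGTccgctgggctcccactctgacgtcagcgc
Pfkfb3, chr2:11502091-11502340, minus strand: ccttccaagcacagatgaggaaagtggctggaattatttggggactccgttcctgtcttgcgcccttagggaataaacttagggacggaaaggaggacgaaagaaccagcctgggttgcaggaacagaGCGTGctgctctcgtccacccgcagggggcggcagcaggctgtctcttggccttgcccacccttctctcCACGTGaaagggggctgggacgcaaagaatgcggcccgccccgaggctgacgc
Egln3, chr12:54203875-54204124, minus strand: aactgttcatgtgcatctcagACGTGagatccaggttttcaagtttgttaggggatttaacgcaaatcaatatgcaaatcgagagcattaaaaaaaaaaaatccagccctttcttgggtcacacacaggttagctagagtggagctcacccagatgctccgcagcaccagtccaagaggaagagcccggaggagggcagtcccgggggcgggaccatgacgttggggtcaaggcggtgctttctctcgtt
Hk2, chr6:82774455-82774704, minus strand: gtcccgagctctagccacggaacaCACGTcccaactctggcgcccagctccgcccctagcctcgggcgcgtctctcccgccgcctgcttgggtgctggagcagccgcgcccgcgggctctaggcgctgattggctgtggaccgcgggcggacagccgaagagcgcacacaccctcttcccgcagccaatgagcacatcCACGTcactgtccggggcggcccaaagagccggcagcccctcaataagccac
On mm10 the genes span chr7:46841475-46855627 for Ldha, chr2:11471433-11554077 for Pfkfb3, chr12:54178981-54203860 for Egln3 and chr6:82725025-82774454 for Hk2. The windows of Ldha and Pfkfb3 lie inside these spans, before the start of the principal transcript, and 11 bases of the Pfkfb3 window belong to an annotated exon. The Ldha window holds 3 such blocks, which start 145, 48 and 34 bases before the start site. The Pfkfb3 window holds 2 blocks, at 122 and 53 bases, the Hk2 window 2 blocks, at 226 and 52 bases, and the Egln3 window 1 block, at 229 bases. Of the 34 members, 27 (79.4%) hold either core in this window, against 38.6% of 32851 promoters of the same length. ACGTG was in 15 member promoters (44.1%, against 16.6% of all) and GCGTG in 19 (55.9%, against 28.2%). ACGTG was in 0 of the 4 pentose phosphate promoters, too few to describe a trait of that pathway. Annotated exons cover all 250 bases of the G6pdx window, 129 of the Tkt, 66 of the Pgd and 0 of the Taldo1 window. The E-box was in 6.02% of all promoters. A match describes these letters and is not a binding site, and the promoters were not matched for base composition. Each member gave 1 promoter, the one nearest its principal start, while the whole set holds every listed promoter of a gene. The members also include genes listed as hypoxia targets, so they were not chosen without regard to HIF.

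The matrices gave 16543 barcodes and 116600732 UMIs (unique molecular identifiers, counted transcripts) for the Cd36-/- library, and 15537 and 117238057 for the fl/fl library. Filters left 14966 and 13965 cells, with medians of 6562 and 6892 UMIs, and 383 barcodes occurred in both libraries. Cells were clustered here and each class name means "like", from marker lists: macrophages (9402 and 7178 cells), B cells (2934 and 4237), T cells (739 and 645), natural killer (NK) cells (528 and 354), type 2 conventional dendritic cells (cDC2, 303 and 400) and smaller classes. Levels are UMIs per 1000000 UMIs of the class (CPM), the Cd36-/- library first, and a log2 ratio is that library over the other. Ranges in brackets are exact 95% intervals, for counting error alone. Counts at the 3′ end are not scaled to length, so levels are compared between classes for the same gene. Cd36 in macrophages stood at 171.9 CPM (169.0 to 174.8) against 239.5 CPM (235.9 to 243.1), a log2 ratio of -0.48, and it was lower in 9 of 9 macrophage clusters. A 3′ tag can lie outside the deleted part, so this level does not measure the deletion. Free RNA was estimated at 12.1% and 10.3% of macrophage UMIs, 7.88% and 6.66% in B cells and 12.4% and 9.40% in T cells, from markers each class should lack. It was taken to have the make-up of all cells of the library, so part of it is RNA of the class itself. Near-identical copies share 42.0% of the 3′-end words of Eno1, 41.1% of those of Gapdh, 19.2% of those of Aldoa and 15.9% of those of G6pdx, so the levels of these 4 genes are less certain. The levels of the members in each class are plotted by library.

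**Figure D1:**
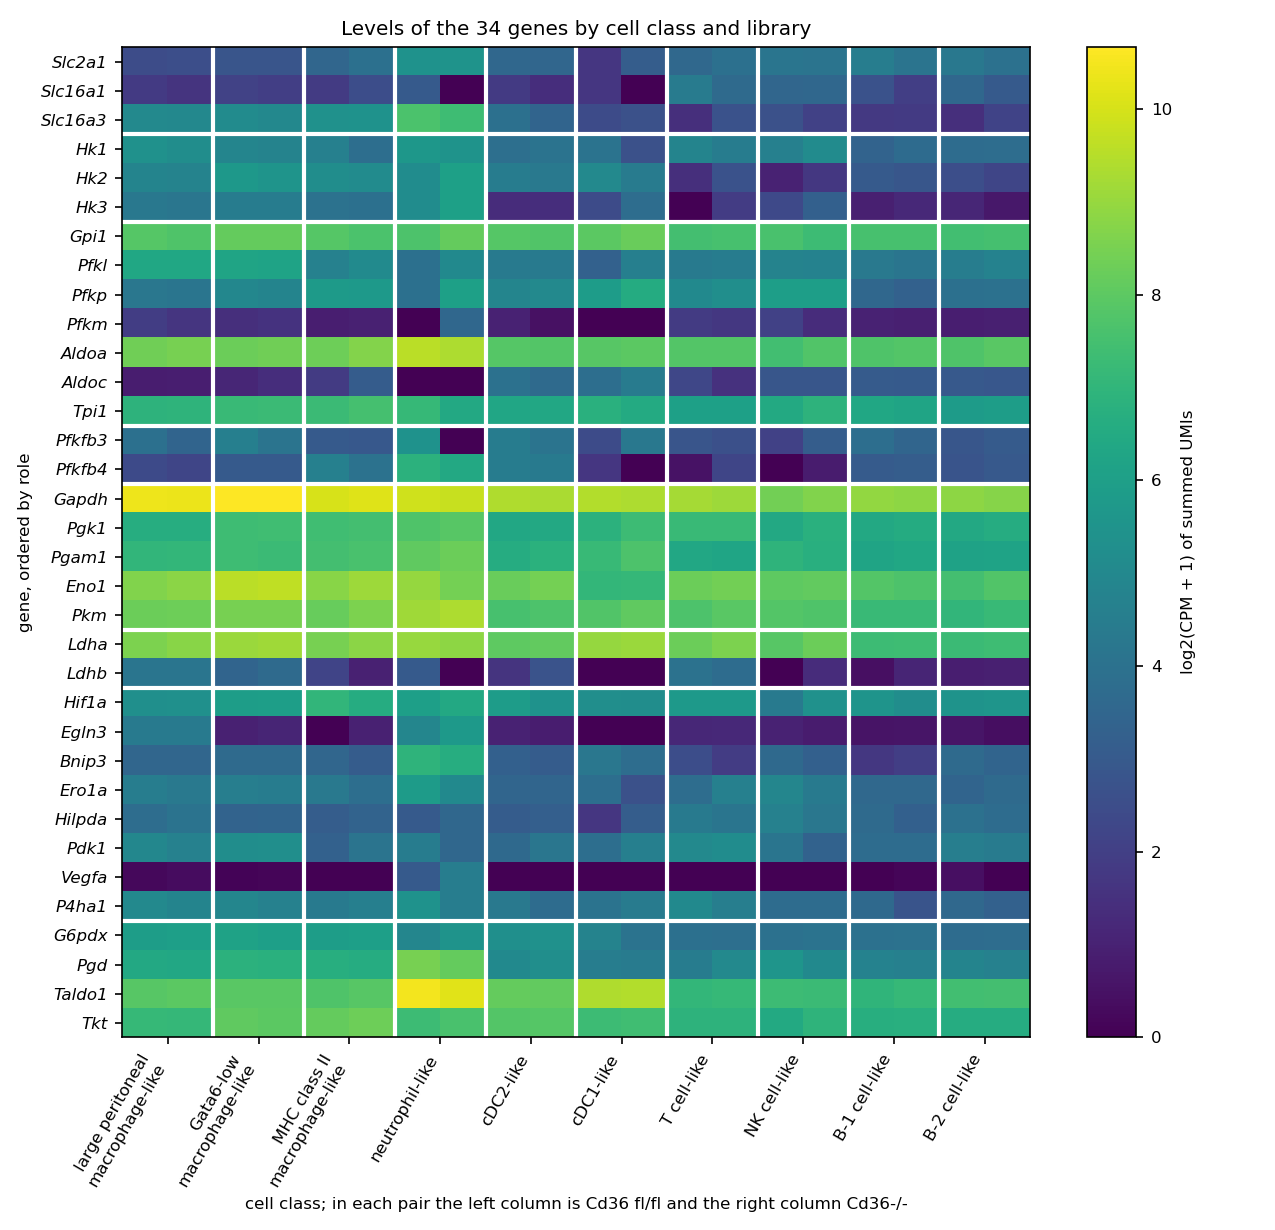
Levels of the 34 members (rows, ordered by role) in 10 cell classes (pairs of columns, the fl/fl library left and the Cd36-/- library right), as colour from dark (low) to yellow (high) on a scale of log2(CPM + 1). Gapdh is brightest in the macrophage classes, Taldo1 in neutrophils, and Egln3 stands out in large peritoneal macrophages and neutrophils.

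Macrophages as a whole carried more of these messages than B, T, NK or dendritic cells, each taken as a whole. The 34 members made up 0.512% and 0.510% of macrophage UMIs, against 0.222% and 0.222% in B cells, 0.281% and 0.271% in T cells, 0.252% and 0.231% in NK cells and 0.303% and 0.301% in cDC2. Neutrophils had higher shares still, 0.649% and 0.701%, from 106 and 135 cells. Smaller groups overlapped. Cycling B cells had 0.429% and 0.446%, type 1 dendritic cells 0.382% and 0.354%, and a macrophage cluster led by Alox15 0.430% and 0.331%. The 16 enzymes from hexokinase to Ldha summed to 4262 and 4213 CPM in macrophages, and to 1792 and 1783 CPM in B cells. Counted cell by cell, macrophages had a median of 38.9 and 38.1 UMIs of these enzymes per 10000 UMIs, and the range from the 10th to the 90th percentile was 23.1 to 59.5 and 21.4 to 58.7. B cells had medians of 15.8 and 15.6. Ccr2 macrophages, a Gata6-low cluster led by Ccr2, a chemokine receptor of recruited monocytes, had 49.6 and 46.6. Ccr2 is not particular to them: over both libraries it stood at 687 CPM there and at 823 CPM in MHC class II macrophages, a small cluster led by Retnla. The MHC class II genes H2-Ab1, H2-Aa and H2-Eb1 were also among the leading genes of Ccr2 macrophages. Their score for the MHC class II macrophage markers was 2.04, against 3.99 in the Retnla cluster, and that name needed a score of 3.

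**Figure D2:**
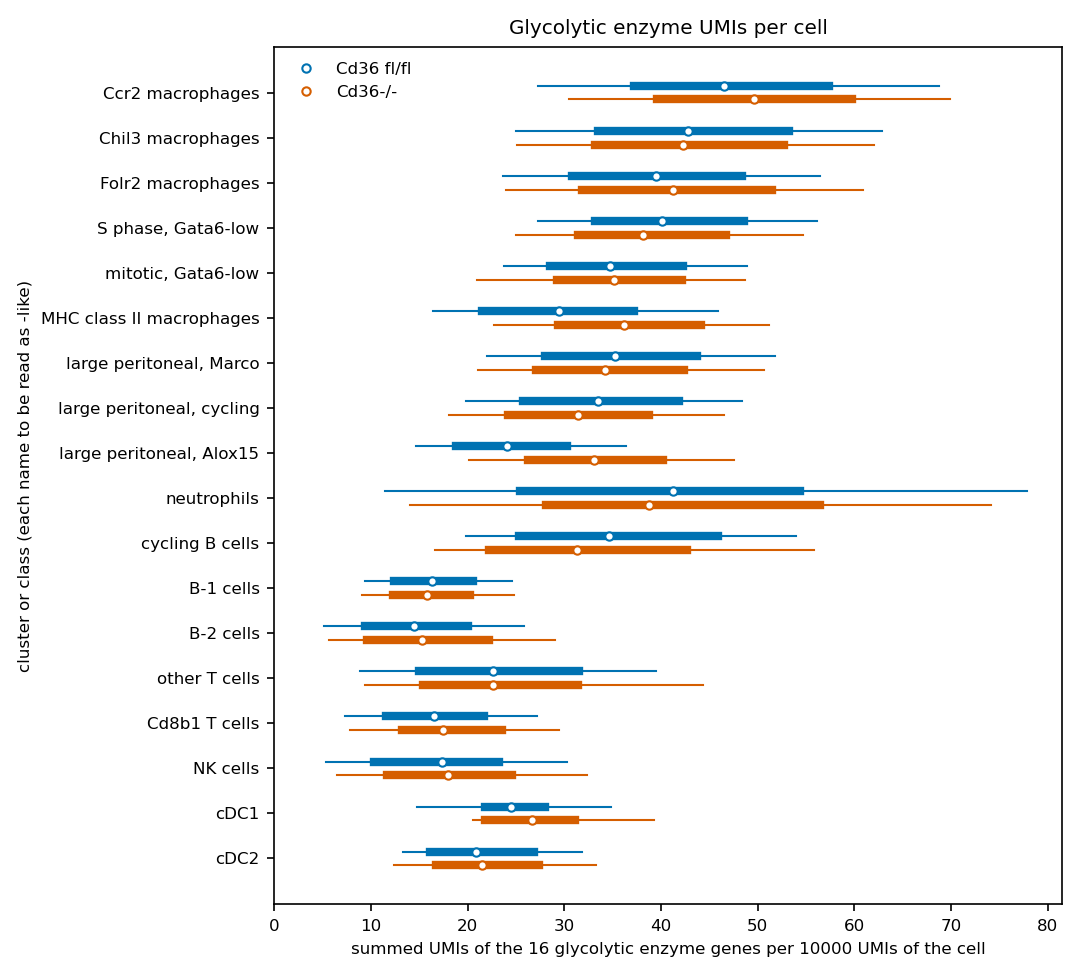
Summed UMIs of the 16 glycolytic enzymes per 10000 UMIs of each cell (horizontal axis) by cluster or class, fl/fl in blue and Cd36-/- in orange. Circles are medians over cells, thick bars run from the 25th to the 75th percentile and thin lines from the 10th to the 90th. Ccr2 macrophages have the highest medians (49.6 and 46.6), and the Alox15 cluster differs between the libraries (33.1 and 24.1).

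Of the 25 members compared between macrophages and B cells, 14 were at least 2-fold higher in macrophages in both libraries, where 22.7% of all genes were, and 1 was at least 2-fold lower, where 9.86% were. A gene was compared where it reached 20 CPM in 1 of the values. A gene that reached it in 1 class alone could pass the 2-fold limit only as higher in that class. This holds for every comparison between classes or clusters given here, and such genes are part of the counts and medians. The median log2 ratio of the compared members was 1.16 and 1.15, against 0.19 and 0.20 over all genes compared. The 14 were Slc16a3, the 3 hexokinases, Pfkl, Pfkp, Gapdh, Eno1, Pkm, Ldha, Pdk1, P4ha1, G6pdx and Pgd. Of these, Slc16a3, the 3 hexokinases, Pfkp, Pdk1, P4ha1 and G6pdx were under 20 CPM in B cells, which fixed their direction. The lower one, Slc2a1, was under 20 CPM in macrophages, which fixed its direction too. Ribosomal protein genes took 42.9% and 44.3% of B cell UMIs and 28.0% and 28.9% of macrophage UMIs. With mitochondrial and ribosomal protein genes left out of the totals, every ratio of macrophages over B cells fell by 0.38 and 0.40 on the log2 scale, and 10 members instead of 15 lay past the limit. The same step lowered the ratios over T cells (-0.37 and -0.42), NK cells (-0.09 and -0.11) and cDC2 (-0.17 and -0.17), those of neutrophils over macrophages (-0.24 and -0.28) and those of cycling B cells over B-1 cells (-0.21 and -0.21). Against T cells 10 of 25 members were higher and 1 lower (20.01% and 11.6% of all genes), against NK cells 10 and 1 (14.9% and 15.9%), and against cDC2 6 and 1 (12.99% and 7.99%). With doublets kept, 2 members instead of 11 passed against T cells.

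The transporters divided the classes. Slc16a3 (MCT4), which exports lactate from highly glycolytic cells, stood at 30.6 and 33.8 CPM in macrophages and at 2.96 and 2.17 CPM in B cells, 10.3-fold and 15.6-fold apart. Neutrophils had still more, 163 and 199 CPM, 5.34-fold and 5.89-fold above macrophages. Slc16a1 (MCT1), the other lactate carrier, went the other way: 11.9 and 20.8 CPM in T cells and 2.66 and 3.04 CPM in macrophages. Slc16a1 made up 8.02% and 8.24% of the UMIs of both carriers in macrophages, 58.3% and 76.2% in B cells and 68.4% and 92.3% in T cells. Slc2a1 (GLUT1), a main glucose importer, was the single member lower in macrophages than in B cells by the 2-fold limit, at 5.84 and 5.70 CPM against 15.96 and 20.6 CPM. Subtracting the estimated free RNA left Slc16a3 at 1.04 and 0.542 CPM in B cells.

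Hexokinases commit glucose to the cell by phosphorylating it. Hk2, the inducible form, stood at 38.8 and 43.0 CPM in macrophages, 5.69 and 6.65 CPM in B cells, and 5.50 and 1.73 CPM in T cells. In NK cells it gave 3 and 1 UMIs in all, 2.34 and 1.04 CPM. Hk3, a form typical of myeloid cells, stood at 19.9 and 20.3 CPM in macrophages and at 1.62 and 1.53 CPM in cDC2, 12.3-fold and 13.3-fold apart. Hk1, the broadly expressed form, ranged across these classes from 10.5 CPM in fl/fl B cells to 34.3 CPM in Cd36-/- NK cells.

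As a share of all hexokinase UMIs, Hk2 made up 44.0% (42.9 to 45.2) and 45.1% (43.9 to 46.3) in macrophages. Within the macrophages its share was lower in large peritoneal macrophages (LPM, the resident type marked by Gata6), at 33.1% and 31.3%, than in Gata6-low macrophages, at 48.6% and 50.8%. Hk1 had the opposite pattern, 45.3% and 47.5% in LPM and 28.3% and 27.9% in Gata6-low cells. In lymphocytes Hk1 led, with 64.5% and 58.0% in B cells, 72.3% and 94.0% in T cells and 75.9% and 82.1% in NK cells. After each cell was thinned to 1500 UMIs, 5.95% and 6.60% of macrophages had an Hk2 UMI, against 0.532% and 0.955% of B cells, and unthinned the macrophage shares were 25.2% and 30.2%. Both libraries showed the higher Hk2 level and share in Gata6-low macrophages than in LPM.

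**Figure D3:**
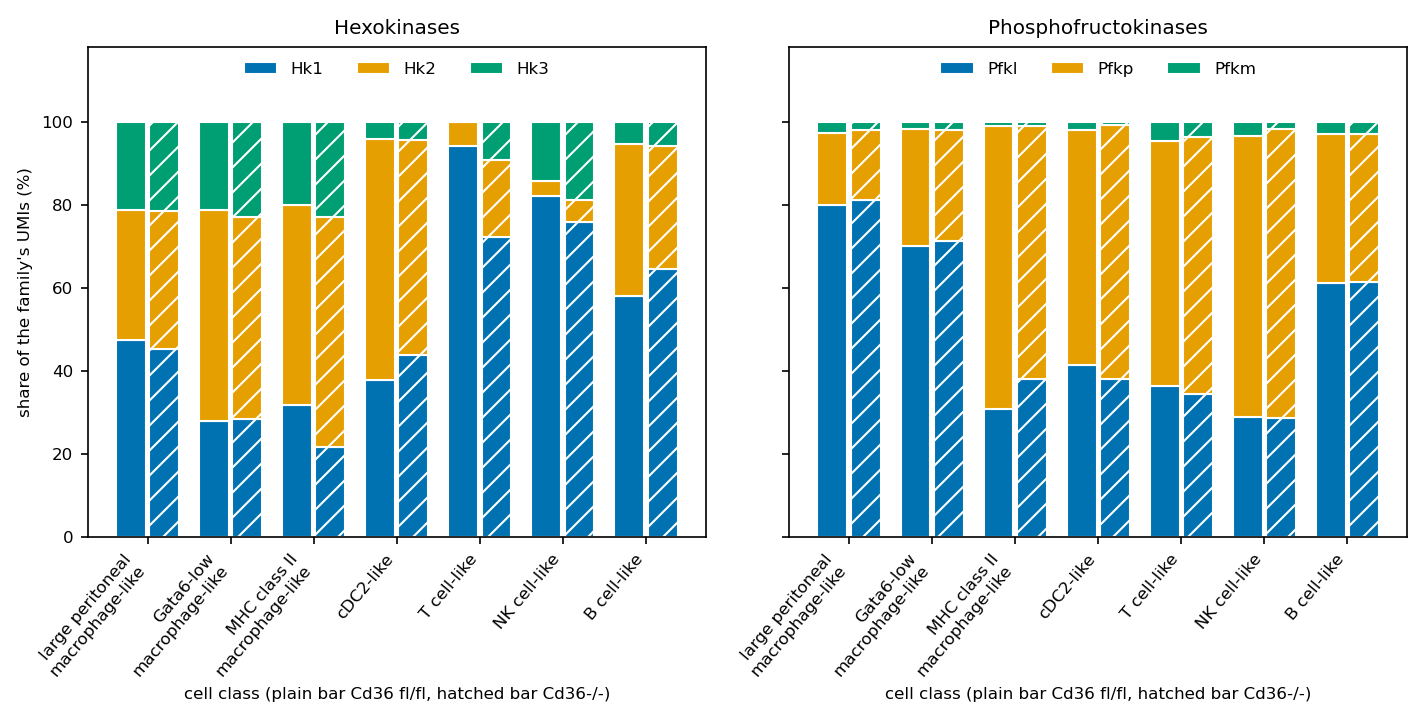
Share (%, vertical axis) of each paralog among the UMIs of the hexokinases (left) and the phosphofructokinases (right), by cell class, with a plain bar for the fl/fl and a hatched bar for the Cd36-/- library. Hk1 leads in lymphocytes and Hk2 in Gata6-low macrophages, and Pfkl leads in LPM (81.2% and 79.9%) while Pfkp leads in NK cells (69.6% and 67.8%).

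Phosphofructokinase is the main control step of glycolysis, and its liver form Pfkl was the macrophage form. Pfkl stood at 74.4 and 75.4 CPM in macrophages, 4.04-fold and 3.74-fold above B cells and 3.83-fold and 3.70-fold above cDC2. Pfkp, the platelet form, was higher in NK cells than in macrophages, at 62.4 and 61.4 CPM against 23.9 and 26.3 CPM. It was the single member at least 2-fold lower in macrophages than in NK cells in both libraries. Pfkl made up 81.2% and 79.9% of phosphofructokinase UMIs in LPM and 71.2% and 70.0% in Gata6-low macrophages, but 38.0% and 30.8% in MHC class II macrophages (126 and 155 cells) and 38.1% and 41.5% in cDC2. The intervals of this share in MHC class II macrophages, 28.1% to 48.8% and 21.5% to 41.3%, overlap those of cDC2 and lie below those of LPM and of Gata6-low macrophages taken as wholes. Among the Gata6-low clusters the mitotic one had a low share too, 54.1% (47.3 to 60.9) in the Cd36-/- library, where its interval overlaps that of the MHC class II cells. Pfkm, the muscle form, was rare at 2.01 and 2.09 CPM in macrophages.

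The other upper enzymes differed less between classes. Gpi1, which converts glucose 6-phosphate to fructose 6-phosphate, stood at 257 and 266 CPM in macrophages and 189 and 186 CPM in B cells. Aldoa, the main aldolase, had 335 and 314 CPM against 231 and 216 CPM, and Tpi1, which interconverts the triose phosphates, had 143 and 141 CPM against 74.8 and 81.7 CPM. All 3 were higher in macrophages, by less than 2-fold in at least 1 library. Aldoc, the brain aldolase, was a trace in macrophages (1.47 and 1.12 CPM) and reached 11.7 and 15.01 CPM in cDC2, where it made up 4.94% and 6.18% of aldolase UMIs.

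Pfkfb3 and Pfkfb4 set the level of fructose 2,6-bisphosphate, which switches phosphofructokinase on. Pfkfb3, the form with the strongest kinase activity, gave 1142 and 1420 UMIs in macrophages. That is 14.1 CPM (13.3 to 14.99) against 20.05 CPM (19.0 to 21.1), lower in the Cd36-/- library by a log2 ratio of -0.50 (-0.62 to -0.39). No other member compared in this class had a ratio as low or past 0.32 on the log2 scale, the size limit used between libraries. The level was lower in the Cd36-/- library in 9 of 9 macrophage clusters, with 8 intervals below 0 and log2 ratios of -1.78 to -0.07. After thinning to 1500 UMIs, 2.05% of Cd36-/- macrophages (1.77 to 2.36) and 3.06% of fl/fl macrophages (2.67 to 3.49) had a Pfkfb3 UMI, and unthinned 10.8% and 16.5% did. The fl/fl level lies just above the 20 CPM floor, so under 2 alternative cell filters the gene dropped out of the count while its log2 ratio ranged from -0.60 to -0.46 over 12 settings.

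By cluster, Pfkfb3 was highest in Folr2 macrophages, at 25.5 and 30.2 CPM (log2 ratio -0.24). Chil3 macrophages, the most numerous Gata6-low cluster, had 13.8 and 22.3 CPM (-0.70), Ccr2 macrophages 17.4 and 22.0 CPM (-0.33), and the S-phase cluster 9.31 and 15.6 CPM (-0.74). In cycling LPM the level was 3.62 against 12.5 CPM (-1.78). LPM as a whole had 9.93 against 14.2 CPM (-0.52) and Gata6-low macrophages 16.4 against 23.2 CPM (-0.50), so the ratio was near equal in both types. Outside the macrophages the direction was mixed. The value was lower in the Cd36-/- library in cDC2, at 16.2 against 21.6 CPM (-0.42, -0.998 to 0.14). It was also lower in B-1 cells, the B cells typical of body cavities, at 10.1 against 13.6 CPM (-0.43). NK cells went the other way, with a higher value in the Cd36-/- library, at levels under the 20 CPM floor. The cDC2 interval spans 0. A low-depth cluster with LPM markers, which was left unnamed, had 12.6 against 22.7 CPM (-0.85).

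**Figure D4:**
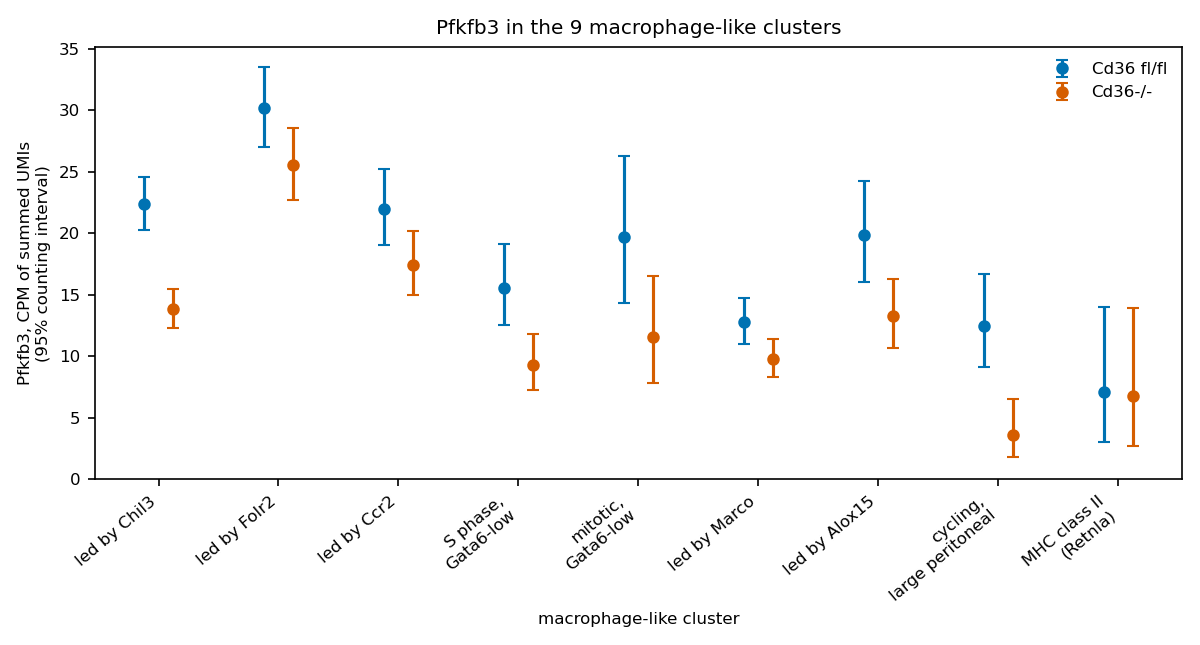
Pfkfb3 level (CPM of summed UMIs, vertical axis) in the 9 macrophage clusters, fl/fl in blue and Cd36-/- in orange, with exact Poisson 95% intervals. In 9 of 9 macrophage clusters the Cd36-/- value lies below the fl/fl value.

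Pfkfb4, its relative, was close between the libraries in macrophages, at 6.12 and 6.42 CPM. It was highest in neutrophils, at 87.0 and 114 CPM, and cDC2 had 19.4 and 21.6 CPM. Of the other macrophage types, MHC class II macrophages had the most, 15.4 and 23.9 CPM against 7.13 and 7.05 CPM in Gata6-low cells.

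The lower glycolytic enzymes harvest the ATP, and Gapdh and Eno1 gave the most UMIs of the 34 genes in both libraries. Gapdh stood at 1499.7 and 1534.8 CPM in macrophages, 2.94-fold and 2.91-fold above B cells and 3.78-fold and 4.54-fold above NK cells. Eno1, the main enolase, had 677 and 639 CPM, 3.14-fold and 2.95-fold above B cells, and Pkm, pyruvate kinase, had 344 and 343 CPM, 2.20-fold and 2.26-fold above them. Pgk1 (144 and 143 CPM) and Pgam1 (148 and 152 CPM), which act between Gapdh and Eno1, were higher than in B cells (102 and 94.6 CPM, and 82.7 and 78.4 CPM) by less than 2-fold. These 5 enzymes were all higher in macrophages than in B cells in both libraries.

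Ldha, the lactate dehydrogenase subunit that favours lactate, stood at 524 and 482 CPM in macrophages and at 175 and 172 CPM in B cells, 3.00-fold and 2.80-fold apart. Between the libraries its log2 ratio in macrophages was 0.12 (0.10 to 0.14), the highest among the 24 members compared there. It was higher in the Cd36-/- library in 9 of 9 macrophage clusters, with 6 intervals above 0 and log2 ratios from 0.02 to 0.68. In LPM the level was 443 against 376 CPM (0.24, 0.20 to 0.28), and 45.8% against 37.9% of LPM had an Ldha UMI after thinning. In macrophages as a whole and in LPM the difference stayed under the limit. Ldhb, the subunit that favours pyruvate, was rare, at 13.5 and 11.9 CPM, with a log2 ratio of 0.19 (0.05 to 0.32) under the floor. It made up 3.66% and 4.23% of lactate dehydrogenase UMIs in LPM, 2.09% and 1.79% in Gata6-low macrophages, and 0.589% and 0.272% in B cells.

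Cycling B cells (41 and 52 cells) stood apart from B-1 cells in the same enzymes. Of 16 members compared, 5 were at least 2-fold higher in both libraries and none lower, where 9.15% and 1.78% of all genes were. Gapdh was 3.28-fold and 3.17-fold higher, Pgk1 2.78-fold and 3.06-fold, Ldha 2.33-fold and 2.91-fold, Pkm 2.16-fold and 2.12-fold, and Tpi1 2.12-fold and 2.59-fold. With mitochondrial and ribosomal protein genes left out of the totals, Pkm and Tpi1 fell under the 2-fold limit. Among macrophages, 0 members passed the limit between cycling and Marco LPM or between S-phase and Folr2 macrophages, where 7.56% and 7.66% of all genes were higher and 0.406% and 1.34% lower. None passed between Marco and Alox15 LPM either (0.625% and 0.208%), or between Chil3 and Folr2 macrophages (0.374% and 0.478%). B-1 against B-2 cells (2.32% and 2.81%) and NK against T cells (6.71% and 2.71%) also gave 0 members past 2-fold in both libraries.

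The oxygen-response genes were low except for Hif1a, the message of the oxygen-sensitive factor, at 55.2 and 54.3 CPM in macrophages. Egln3 (PHD3), a prolyl hydroxylase that HIF itself induces, was the 1 member that separated LPM from Gata6-low macrophages by 2-fold or more, where 3.58% of all genes were higher in LPM and 2.54% lower. It stood at 19.4 and 20.1 CPM in LPM and at 1.18 and 0.977 CPM in Gata6-low macrophages, 16.4-fold and 20.6-fold apart. After thinning, 2.95% and 3.39% of LPM had an Egln3 UMI, against 0.238% and 0.176% of Gata6-low macrophages, whose median depths were 8581 and 9806 UMIs against 7524 and 8697 in LPM. The libraries had near equal values of Egln3 in both types. Egln3 reached 20 CPM in LPM of the fl/fl library alone, so once compared it could pass only as higher in LPM. For the same reason it dropped out of the comparison with doublets kept or with cells assigned by marker gates.

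Most of the other members leaned the other way between the macrophage types. The median log2 ratio of LPM over Gata6-low macrophages was -0.29 and -0.28, against -0.10 and -0.12 over all genes, with 19 of the 25 compared below 0 in both libraries and 5, Egln3, Hk1, Pfkl, P4ha1 and Aldoa, above. Eno1 had 444 and 402 CPM in LPM against 795 and 757 CPM, Pgk1 had 99.2 and 99.1 CPM against 166 and 163 CPM, and Tkt had 135 and 143 CPM against 250.1 and 263 CPM. MHC class II macrophages were lower than Gata6-low cells in Pfkl, Pfkfb3 and Pdk1 by at least 2-fold, where 4.58% of all genes were, and higher in Pfkfb4, where 3.76% were.

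Of the HIF targets, Pdk1, which keeps pyruvate out of the mitochondria, stood at 32.8 and 33.7 CPM in macrophages, 2.26-fold and 2.21-fold above B cells. P4ha1, a collagen prolyl hydroxylase subunit, had 25.7 and 29.45 CPM, and its ratio (-0.20, -0.29 to -0.11) was the lowest between the libraries after that of Pfkfb3. Ero1a, an oxidase of the endoplasmic reticulum, had 20.3 and 22.4 CPM (-0.14), and Bnip3, a mitophagy receptor, 11.3 and 11.4 CPM. Hilpda, a lipid droplet protein that restrains lipolysis, had 11.8 and 10.5 CPM, under the floor, with a log2 ratio of 0.16 (0.02 to 0.30). Vegfa, the angiogenic factor, gave 12 and 8 UMIs in all macrophages, so almost none was detected in either library. In neutrophils Bnip3 reached 97.9 and 121 CPM, 8.65-fold and 10.6-fold above macrophages.

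Of the pentose phosphate genes, 2 of 4 separated macrophages from B cells by the 2-fold limit. G6pdx, the entry enzyme, stood at 64.3 and 67.2 CPM in macrophages and 14.6 and 14.7 CPM in B cells, 4.40-fold and 4.57-fold apart. Pgd, the next NADPH-producing step, had 100.6 and 105 CPM against 24.8 and 27.3 CPM, 4.05-fold and 3.86-fold apart. Both were also more than 3-fold above T cells in both libraries. Taldo1 and Tkt return the sugars to glycolysis. Taldo1 had 245 and 240.3 CPM in macrophages against 152 and 140.4 CPM in B cells, and Tkt 213 and 225 CPM against 108 and 104.5 CPM, both higher in macrophages. Dendritic cells had more Taldo1 than macrophages, with 272 and 284 CPM in cDC2.

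Neutrophils were few and shallow, with medians of 720 and 909 UMIs, and each value rests on few counts. Of 29 members compared with macrophages, 8 were at least 2-fold higher in both libraries and 1, Pfkl with 3 and 2 UMIs, was lower, where 15.5% and 11.3% of all genes were. Taldo1 was highest there, at 1153 and 1444.5 CPM, 4.70-fold and 6.01-fold above macrophages, and Pgd had 283 and 356 CPM, 2.81-fold and 3.38-fold above. G6pdx was not above the macrophage level, at 43.5 and 28.5 CPM. Slc2a1, Egln3 and Vegfa are also among the 8, but rest on 4 and 6, 5 and 4, and 2 and 1 UMIs. Slc2a1, Pfkfb4, Egln3, Bnip3 and Vegfa were under the floor in macrophages, so once compared they could pass only as higher in neutrophils.

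Between the libraries, macrophages were close. Of 24 members compared, 0 were past the limit of 0.32 (log2) and higher in the Cd36-/- library and 1, Pfkfb3, was past it and lower, where 1.37% and 2.14% of all 4585 genes compared were. Pfkfb3 reached 20 CPM in the fl/fl library alone, so once compared it could only be lower. The direction was likewise fixed for any gene, here or in another class, that reached the floor in 1 library alone. The median log2 ratio of the members was -0.04, against -0.01 over all genes. Of the 24, 8 ratios were above 0 and 16 below. The interval lay above 0 for 3 members, Ldha, Eno1 and Aldoa, and below 0 for 12, while 29.2% and 33.3% of all genes had such intervals. Aldoa had a log2 ratio of 0.09 (0.07 to 0.12) and Eno1 of 0.08 (0.07 to 0.10), both among the genes with near-identical copies. Among the 12 lower members, the next after Pfkfb3 and P4ha1 were Hk2 (-0.15, -0.22 to -0.08), Slc16a3 (-0.15), Ero1a (-0.14), Pfkp (-0.14) and Hk1 (-0.13). The 10 members under the 20 CPM floor in macrophages were Slc2a1, Slc16a1, Pfkm, Aldoc, Pfkfb4, Ldhb, Egln3, Bnip3, Hilpda and Vegfa.

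**Figure D5:**
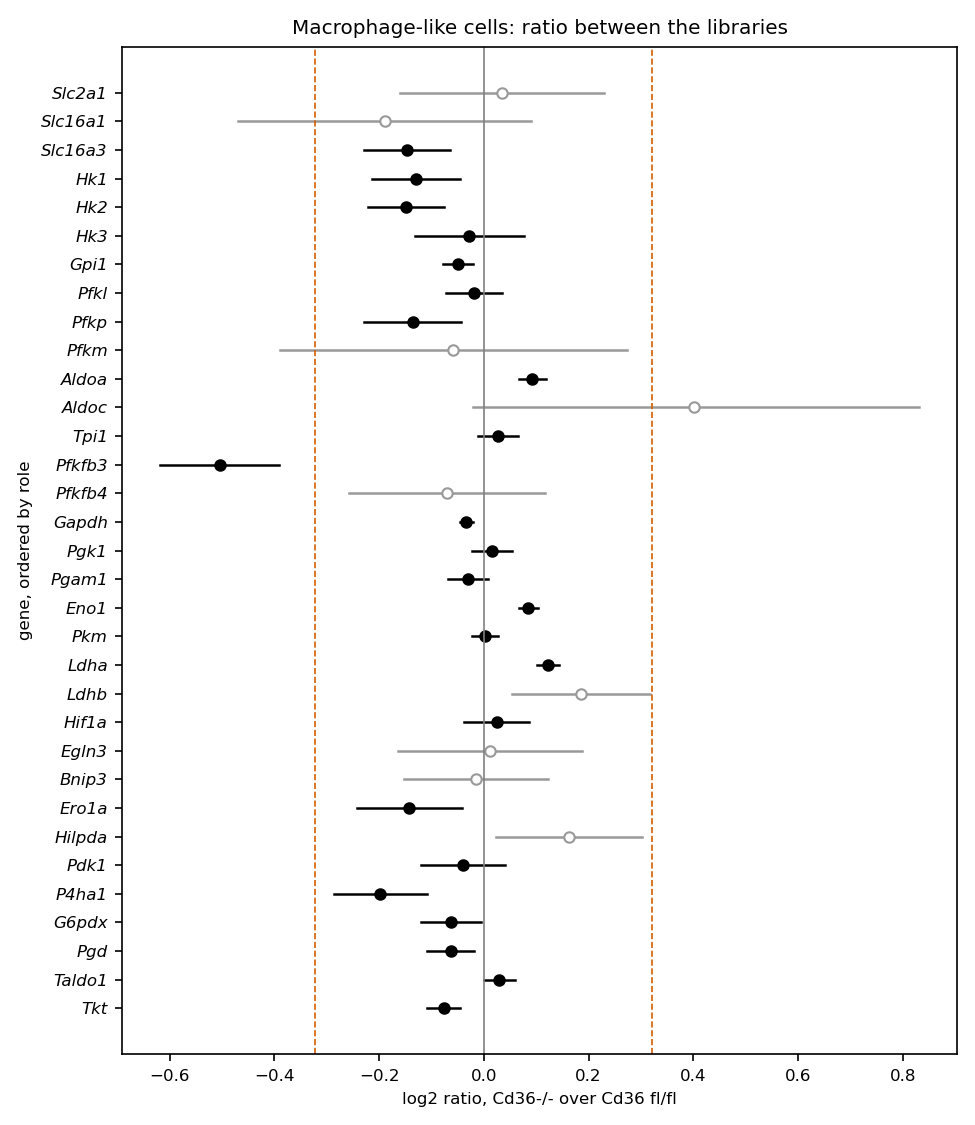
Log2 ratio of the Cd36-/- over the fl/fl library (horizontal axis) for 33 members in macrophages, without Vegfa, with exact 95% intervals for counting error. Filled points reach 20 CPM in 1 library, open points do not, and dashed lines mark the limit of 0.32. Among the filled points Pfkfb3 (-0.50) lies farthest from 0, and Ldha (0.12) is the highest.

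LPM and Gata6-low macrophages were compared separately. In LPM 0 of 22 members were past the limit in either direction, where 2.42% of all genes were higher and 3.22% lower. Eno1 (444 against 402 CPM, 0.14) and Aldoa (352 against 328 CPM, 0.10) were among the higher ones after Ldha, and Pdk1 had 24.6 against 29.8 CPM (-0.28, -0.43 to -0.12). In Gata6-low macrophages 0 of 24 were higher and 1, Pfkfb3, was lower, where 1.76% and 3.08% were. Within them, Chil3 macrophages gave 0 of 24 higher and 1, Pfkfb3, lower (2.40% and 3.13%). Folr2 macrophages gave 0 higher and 3 lower (3.48% and 6.90%): Hk1 with 26.5 against 33.5 CPM (-0.34), Hk2 with 54.5 against 72.2 CPM (-0.40) and P4ha1 with 27.3 against 36.3 CPM (-0.41). Ccr2 macrophages gave 1 of each (3.94% and 5.20%), with Pdk1 higher at 34.8 against 27.7 CPM (0.33) and Pfkfb3 lower. Cell cycle genes also differed within the LPM, with 7 of 11 compared lower past the limit and a median log2 ratio of -0.50, and their part in these values was not tested.

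Inside the LPM the members differed between 2 clusters. In the cluster led by Alox15 (1062 and 717 cells), a lipoxygenase typical of resident macrophages, 11 of 21 members were higher past the limit in the Cd36-/- library and 1, Ldhb, was lower, where 25.2% and 8.62% of all genes were. The median log2 ratio was 0.36, against 0.10 over all genes. Eno1 had 509.6 against 293 CPM (0.80, 0.71 to 0.89), Ldha 419 against 262 CPM (0.68), and Taldo1 301 against 213 CPM (0.50). Tpi1, Pgam1, Pkm, Pfkl, G6pdx, Pgk1, Slc16a3 and Aldoa were the other 8, with log2 ratios from 0.36 to 0.51, and the interval of Slc16a3 spanned 0 (-0.01 to 0.76). The summed level of the 16 enzymes was 3476 against 2620 CPM. In the cluster led by Marco, a scavenger receptor, 0 of 22 members passed in either direction (2.44% and 3.77% of all genes), and the sum was 3705 against 3811 CPM.

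The border between the clusters was set by the clustering. Alox15 itself stood at 2873 against 1820 CPM in the Alox15 cluster and Marco at 232 against 267 CPM, and ribosomal protein genes made up 26.5% and 30.0% of its UMIs. When LPM were taken instead by at least 20 Alox15 UMIs per 10000 (1065 and 566 cells), 2 of 20 members, Tpi1 and Eno1, were higher, where 14.2% of all genes were, and 1, Pdk1, was lower, where 4.60% were. By that gate Gapdh had a log2 ratio of -0.04 (-0.09 to 0.0040), against 0.28 in the cluster, and Ldha had 432 against 354 CPM (0.29). With both clusters joined, 0 of 22 members were past the limit, where 3.44% were higher and 3.26% lower, and Ldha had 445 against 372 CPM (0.26). Among cells of the Alox15 cluster with 0 Marco UMIs (642 and 314 cells), 9 of 22 were higher, where 26.5% were, and 2, Ldhb and Egln3, were lower, where 10.9% were. These 3 ways to take the cells were chosen with the data in view.

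In B cells 0 of 15 members were higher and 1, Slc2a1, was lower, where 3.52% and 3.33% of all genes were. Slc2a1 stood at 15.96 against 20.6 CPM (-0.37, -0.61 to -0.14). Its level reached 20 CPM in the fl/fl library alone, so once compared it could only come out lower. The ratio fell under the limit when cells were assigned by marker gates (-0.15) or when each cell weighed the same (-0.24). In B-1 cells 0 of 14 were higher (4.40%) and 2 lower (4.65%): Slc2a1 with 16.3 against 21.7 CPM (-0.41, -0.69 to -0.13) and Hif1a with 36.4 against 45.6 CPM (-0.33, -0.51 to -0.14), which was under the limit with doublets kept (-0.25) and at clustering resolution 2 (-0.28). P4ha1 was under the floor there, at 5.92 against 11.6 CPM (-0.97, -1.42 to -0.54). In B-2 cells, the follicular type, 0 of 15 members passed in either direction (8.52% and 5.89%).

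T and NK cells were fewer and shallower, and more of all genes lay past the limit there. In T cells 2 of 20 members were higher, where 15.8% of all genes were, and 3 lower, where 7.82% were. Ero1a had 24.3 against 13.0 CPM (0.90, 0.23 to 1.60) and Slc16a1 11.9 against 20.8 CPM (-0.80, -1.55 to -0.08), and the intervals of Pgd, Hk1 and P4ha1 spanned 0. Ero1a and Slc16a1 each reached 20 CPM in 1 library alone, which fixed their direction. In NK cells 6 of 18 were higher and 3 lower, where 20.2% and 14.9% of all genes were. Hif1a had 40.6 against 19.8 CPM (1.04, 0.26 to 1.88) from 52 and 19 UMIs, and Ldha 311 against 238 CPM (0.39, 0.15 to 0.63). Tkt (0.47), Tpi1 (0.41) and Aldoa (0.34) also had intervals above 0, while that of Hk1 and those of the 3 lower members, Ero1a, Hilpda and Pgd, spanned 0. With marker gates Ldha (0.24) and Tpi1 (0.25) fell under the limit. The NK cells of the Cd36-/- library had more cell cycle message, with 7 of 7 compared genes of that list higher past the limit and a median log2 ratio of 1.70, and its part in the values above was not tested.

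Within the T cells, Cd8b1 T cells differed from the other T cells in 3 of 22 members, all lower in both libraries, where 2.31% of all genes were lower and 1.26% higher. Ldhb stood at 3.55 and 5.40 CPM against 23.5 and 28.8 CPM, Hif1a at 33.7 and 27.8 CPM against 72.8 and 92.2 CPM, and P4ha1 at 15.96 and 22.4 CPM against 33.6 and 50.7 CPM. Ldhb was under 20 CPM in Cd8b1 T cells, so it could pass only as lower there. Of the cell cycle genes, 8 of 12 compared were also at least 2-fold lower in Cd8b1 T cells in both libraries. Their median log2 ratios were -1.98 and -1.41, and their part in these values was not tested. In cDC2, 0 of 19 members were higher in the Cd36-/- library and 2 lower, where 11.4% and 6.37% of all genes were: Pfkfb3, given above, and Hif1a with 42.9 against 58.5 CPM (-0.45, -0.79 to -0.11). With marker gates the Hif1a ratio was -0.0044, and with each cell weighing the same -0.31, both under the limit. Pfkfb3 reached 20 CPM in cDC2 of the fl/fl library alone, so once compared it could only be lower. Type 1 dendritic cells (cDC1, 39 and 33 cells) had more Pfkp than cDC2, at 94.2 and 57.8 CPM against 31.2 and 27.7 CPM, and more Taldo1, at 688 and 680 CPM against 272 and 284 CPM. They had less Eno1, at 136 and 131 CPM against 344 and 300 CPM, and less Pfkfb4, and 2 members of 22 were higher and 2 lower, where 5.56% and 5.46% of all genes were.

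Other genes of these pathways, from lists that do not hold the members, were few above the floor. In macrophages 2 of 21 further glucose transporter and glycolysis genes, 5 of 12 genes of pyruvate entry into mitochondria and 3 of 8 further pentose phosphate genes were compared, and 0 of these 10 passed the limit of 0.32. Of 32 further hypoxia pathway genes 11 were compared. None was higher and 1 was lower: Cited2, which competes with HIF-1α for its coactivators, at 60.6 against 78.3 CPM (-0.37). In neutrophils Slc2a3 (GLUT3), a high-affinity glucose importer, stood at 76.1 and 92.5 CPM, against 0.619 and 0.664 CPM in macrophages. Slc2a6 was the glucose transporter higher in macrophages than in B cells, at 47.5 and 52.2 CPM against 7.24 and 5.20 CPM.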

How the data were processed

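Per the labels' protocols, both groups were pools of 4 replicates of peritoneal cells, and each pool became 1 library of the 10x 3′ v2 chemistry. Cell Ranger and mm10 are named in the submitters' processing notes, and the file headers give software version 3.0.0. The values deposited by the authors are raw UMI counts, with at least 500 UMIs per barcode. The treatment of reads that match several genes is not given in the sources used here.

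Cells needed at least 200 genes (36 and 38 barcodes failed) and at most 10% mitochondrial UMIs (507 and 766 failed). Scrublet in scanpy 1.11.5 marked 1034 (6.46%) and 768 (5.21%) doublets, which were removed. Both libraries were clustered together with leidenalg 0.10.2 at resolution 1 on 2000 variable genes, 40 principal components and 20 neighbours, which gave 24 clusters. Clusters were named from marker lists, with at least 3 detected markers. The UMIs of a class in a library were added up and scaled to the sum of that class (CPM). Intervals at 95% are exact Poisson for CPM, conditional binomial for ratios and Clopper-Pearson for shares (scipy 1.17.1). Genes reaching 20 CPM in 1 of the values were compared, with a log2 limit of 0.32 between libraries and a 2-fold limit between classes, which describe size only. The code was checked on simulated counts. There, 26.2% of unchanged genes in NK cells passed the limit between libraries by counting error, and 0% in macrophages. With 1 library per group no test was run.

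All 34 members are accounted for. Those with values in full are up to 6 per direction in macrophages, 3 in other classes with at least 200 cells per library and 12 between classes, ranked by the interval bound or the smaller ratio, and every paralog family. The members and lists were chosen with earlier results of these data known. Alternatives were other cell filters, clusterings, gates, floors, scalings and fold limits. Gene names came from the files, sequence near the 3′ end from GENCODE M21, which holds 30934 of the gene IDs, and promoters from RefSeq.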

Additional observations from a re-analysis of the deposited data

Results flagged for a closer look

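For 5 members the ratio between the libraries had opposite signs in 2 clusters of large peritoneal macrophages, with intervals for counting error that left out 0 on both sides. Pfkl, a phosphofructokinase, had a log2 ratio of 0.47 in the Alox15 cluster and -0.18 in the Marco cluster. Gapdh had 0.28 and -0.09, Pkm, pyruvate kinase, 0.47 and -0.08, Taldo1, transaldolase, 0.50 and -0.07, and Tkt, transketolase, 0.24 and -0.14. These opposite signs depend on where the border between the clusters lies. With cells taken by at least 20 Alox15 UMIs per 10000, Gapdh had -0.04 and the others 0.21 (Pfkl), 0.24 (Pkm), 0.29 (Taldo1) and 0.19 (Tkt), and with both clusters joined Pfkl had -0.02, Gapdh -0.03, Pkm 0.08, Taldo1 0.09 and Tkt -0.04. Eno1, enolase, had -0.12 in B-1 cells and 0.27 in B-2 cells. With 1 library per group, none of these differences between clusters was tested.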

How the results depend on the processing

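No paired analysis was possible because each group is 1 library, so the groups share a single replicate number. Of the values of main results under other settings, 39 moved and 101 counted as the same. These values are counts and shares, which carry no sign, so a reversal could not be seen in them. With every gene of at least 1 UMI compared in place of the 20 CPM floor, the members past the limit of 0.32 (log2) between the libraries were 2 higher in macrophages instead of 0, and 3 instead of 0 in LPM, 2 instead of 1 in Gata6-low macrophages, 11 instead of 2 in B-1 cells, 6 instead of 0 in B-2 cells, 12 instead of 5 in T cells, 19 instead of 9 in NK cells and 10 instead of 2 in cDC2. With a floor of 5 CPM they were 1 in LPM, 7 in B-1, 1 in B-2, 8 in T, 14 in NK cells and 7 in cDC2, and 3 other pathway genes passed in macrophages instead of 1. With doublets kept or at most 5% mitochondrial UMIs, 0 members were lower in macrophages, because Pfkfb3 fell under the floor. With doublets kept the count was also 0 in B-1 cells, 3 in T cells, 0 for LPM over Gata6-low macrophages and 2 instead of 11 for macrophages over T cells. At resolution 2 it was 1 in B-1 and 3 in T cells. With marker gates it was 1 in B-2 cells, 3 in T cells, 8 in cDC2, 0 for LPM over Gata6-low macrophages and 7 for macrophages over T cells. Without mitochondrial and ribosomal protein genes it was 2 in LPM, 5 in B-1, 2 in B-2 cells and 6 in cDC2, and with each cell weighing the same 1 in B-2 cells. At 1.5-fold, 18 instead of 11 members passed for macrophages over NK cells. The share of macrophages with an Hk2 UMI was 5.95% and 6.60% at 1500 UMIs, 25.2% and 30.2% unthinned and 2.96% and 3.06% at 750 UMIs. By an Alox15 gate, chosen after the data had been seen, as was joining the unnamed cluster to the LPM, 2 instead of 11 members were higher. Except where stated, the cause was not tested. Every interval covers counting error only, and differences between animals cannot be seen in 1 pool per group.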

Other observations

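Ddit4 (REDD1), an mTORC1 inhibitor induced by hypoxia and by glucocorticoids, is not one of the 34 genes but belongs to the list of other hypoxia pathway genes. It stood at 2.75 against 9.08 CPM in macrophages (-1.72, -1.95 to -1.50), under the floor of 20 CPM. It was lower in the Cd36-/- library in 9 of 9 macrophage clusters, with log2 ratios from -2.21 to -1.14. In B cells, which LysM-Cre does not target, it had 27.0 against 53.3 CPM (-0.98, -1.16 to -0.81). Cited2, of the same list, was also lower in 9 of 9 macrophage clusters, with 7 intervals below 0, and had 27.3 against 44.3 CPM in B cells (-0.70). Among genes that respond to cell handling, Atf3 had 22.6 against 15.6 CPM in macrophages (0.54) and Dnajb1 29.3 against 38.5 CPM (-0.39), and 8 of the 12 genes of that list were compared, 4 above 0 and 4 below. The parts of cell handling, of Cre and of Cd36 loss in the values of Ddit4 and Cited2 were not tested.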
